A study of Mus musculus with 8 samples.

Results

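Choroid plexus epithelial cells were picked out of single-cell RNA libraries of mouse cortex by their own transcripts. A cell barcode was kept with at least 500 detected genes and under 15% of its UMIs (unique molecular identifiers, counts of captured RNA molecules) from mitochondrial genes. A member was chosen by at least 300 Ttr UMIs per 10000 UMIs of the cell and a UMI from at least 2 of the 4 genes Folr1, Kcnj13, Enpp2 and Kl. Its endothelial genes Cldn5, Flt1 and Pecam1 had to sum to under 20 per 10000, and so did its microglial genes C1qa and C1qb. This left 179 members of 50254 kept cells (0.356%) over 7 distinct libraries. Of these, 166 came from the Lama4 experiment and 13 from the Lama5 experiment.

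The choroid plexus is a fringe of secretory tissue in the brain ventricles, in which a cuboidal epithelium covers fenestrated capillaries. Its epithelial cells make cerebrospinal fluid by moving sodium, chloride, bicarbonate and water across the cell, carry hormones and vitamins into the fluid, and secrete carriers such as transthyretin, the product of Ttr. The epithelium rests on a laminin-rich basement membrane, and its tight junctions, not the capillary wall, form the barrier between blood and fluid.

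The study compared 8-week-old mice lacking laminin alpha 4 (Lama4-/-) with a WT control, and mice with Lama5 deleted by Tek-Cre (Tek-Cre:Lama5-/-) with a WT control of their own. Tek-Cre is active in the endothelial lineage and is also known to act in some blood cells, so it was not aimed at the epithelium. All mice were perfused with PBS, 3 brains were pooled for each group, and the labels give 8 samples, 2 in each of 4 groups. The tissue label is brain cortical plate, and the protocol digests the tissue with enzymes and removes myelin by centrifugation.

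Both Lama4-/- samples held the same matrix and barcodes and were counted as 1 library, so no test of that knockout was made. The 2 libraries of each other group come from 1 pool of brains, and their spread leaves out differences between mice. The 7 libraries held between 35479306 and 48314458 UMIs in 6295 to 9556 deposited barcodes, and 83.4% to 91.5% of the barcodes were kept. Any 2 libraries shared 5 to 24 barcode sequences among kept cells, and no barcode was a member in 2 libraries. Levels are UMIs summed over the members of a library and scaled to a total of 1000000 (CPM), counted at transcript 3-prime ends and not divided by gene length. Exact Poisson 95% intervals (for levels) and exact binomial intervals (Clopper-Pearson, for shares) cover counting error only.

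The label was checked against the markers. Of the 190 kept cells that reached the Ttr limit, 186 had at least 2 of the 4 further markers, 181 of these also met the endothelial limit, and 179 met every limit. All 4 further markers were found in 160 members, 3 in 14 members and 2 in 5 members. The members nearest to the Ttr limit had 371, 385, 400, 432 and 578 Ttr UMIs per 10000. The nearest cells outside it that met the rest of the rule had 221, 215, 207, 179 and 133. Between 100 and 300 lay 55 kept cells, 50 of them in Lama4-/- and 1 in each WT library of that experiment. Of the 55, 8 met the rest of the rule, 6 of them in Lama4-/-. These values describe how members were chosen and test nothing.

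Members made up 0.483% of kept cells in WT replicate 1 of the Lama4 experiment (27 of 5594, interval 0.318% to 0.701%) and 0.469% in WT replicate 2 (25 of 5332, 0.304% to 0.691%). In the Lama4-/- library they made up 2.13% (114 of 5355, 1.76% to 2.55%). The Lama4-/- share was 4.47 times the mean of its WT libraries, a difference of 1.65 percentage points, and its interval lay above both WT intervals. With 1 distinct knockout library the difference has no replicate check. In the Lama5 experiment, 1 of 8556 cells in WT replicate 1 was a member (0.0117%) and 0 of 8527 in WT replicate 2. The exact interval of that WT replicate 2 reached up to 0.0433%. Each Tek-Cre:Lama5-/- library held 6 members, of 8337 cells (0.0720%) and of 8553 cells (0.0702%). Both Tek-Cre:Lama5-/- shares were above both WT shares, by 0.0652 points on average. The two-sided exact permutation test over libraries gave p = 0.3333, the smallest that 2 against 2 libraries allow. The libraries of a group come from 1 pool of brains, so this p does not measure differences between mice. The WT libraries of the Lama4 experiment were themselves far above those of the Lama5 experiment. How much choroid plexus entered each pool of cortex is given by no label, and its part in these shares was not tested.

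**Figure D1:**
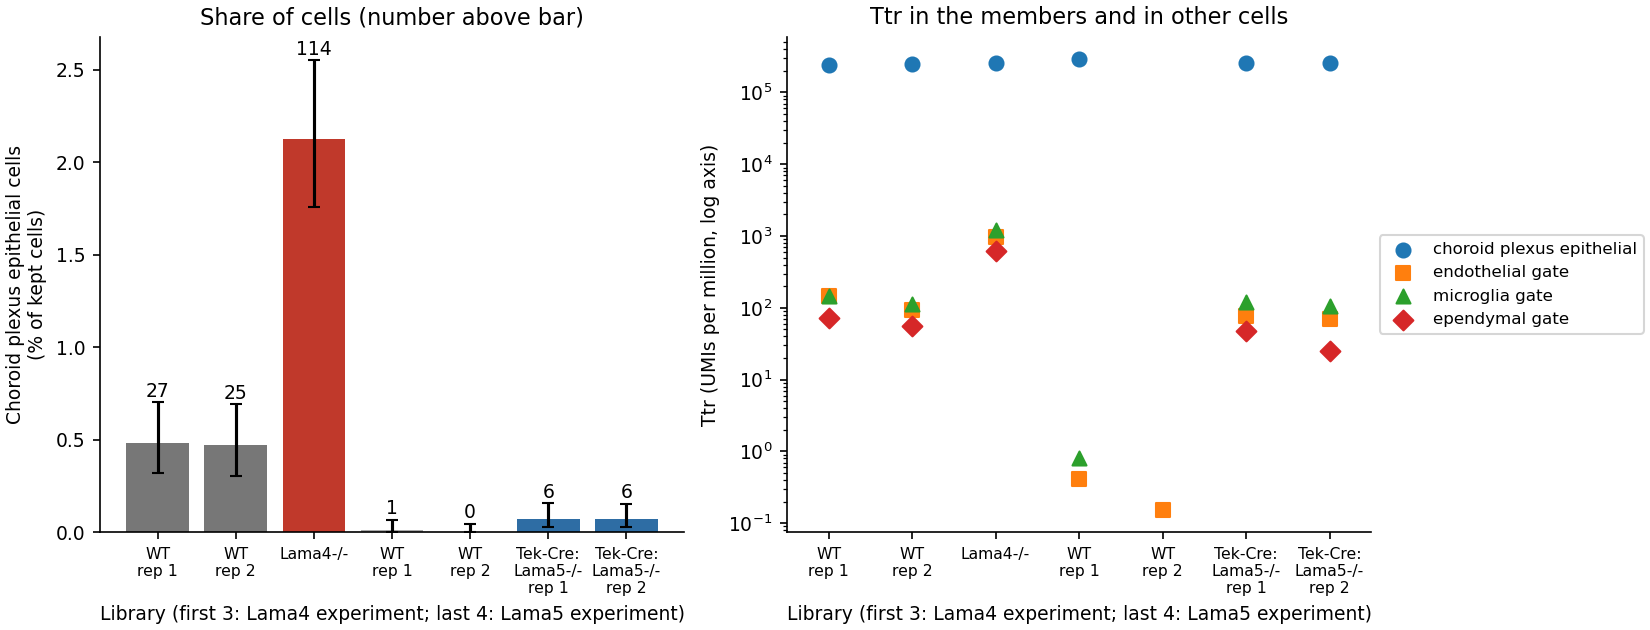
Left, members as a percentage of kept cells in each of the 7 libraries, with exact binomial 95% intervals and the number of members above each bar; the Lama4-/- bar (2.13%) stands above every other. Right, the Ttr level (CPM, log axis) in members and in the endothelial, microglia and ependymal gates of each library; gates with 0 Ttr UMIs are not drawn, and the gates of the Lama4-/- library are the highest of the non-member points.

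Ttr made up 24.0%, 25.1% and 25.9% of all member UMIs in WT replicate 1, WT replicate 2 and Lama4-/-, and 26.0% and 26.1% in the Tek-Cre:Lama5-/- libraries. Cells outside the membership also held Ttr, in an order like that of the member counts. Of the other kept cells, 62.2% and 51.7% held a Ttr UMI in the WT libraries of the Lama4 experiment and 99.2% in Lama4-/-. The share was 0.164% and 0.0821% in both Lama5-experiment WT libraries, and 26.3% and 21.1% in Tek-Cre:Lama5-/-. Median depth of these other cells was 6685, 6563, 5363, 3981, 3757, 3277 and 3037 UMIs in the same order of libraries. In the endothelial gate (the 3 endothelial genes at 20 per 10000 or more), Ttr stood at 144, 94.1 and 970 CPM in the Lama4 experiment and at 0.413, 0.155, 78.3 and 69.2 CPM in the Lama5 experiment. The level in the endothelial gate was lowest in the 2 libraries with 1 and 0 members. The source of this Ttr was not tested. Members still held 90.1% to 98.9% of each library's kept-cell Ttr UMIs wherever a member was found. A Ttr UMI alone therefore did not mark a member, and the rule asked for a level.

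Members were deep cells. Their median was 15463, 9923 and 16119.5 UMIs in WT replicate 1, WT replicate 2 and Lama4-/-, 4852 in the 1 WT member of the Lama5 experiment, and 26452.5 and 15008 in Tek-Cre:Lama5-/-. Within Lama4-/- they ranged from 861 to 98311 UMIs. Thinned to 3000 UMIs, a member showed a median of 1160.5, 1223 and 1181 genes in the Lama4 experiment. The medians were 1571.5, 1589 and 1597 in 500 endothelial-gate cells drawn from each library. The 3000 UMIs of a member included Ttr, on which members were chosen, so a lower count was partly set by the choice. That comparison left out 5, 1 and 15 members and 50, 67 and 80 endothelial cells shallower than 3000 UMIs. Without thinning the medians were 3319, 2544 and 3352 genes in members and 2537.5, 2434 and 2215 in the drawn endothelial cells.

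Members were also rich in mitochondrial transcripts. The median mitochondrial share was 7.89%, 7.61% and 9.40% in the Lama4 experiment and 12.01% and 10.8% in Tek-Cre:Lama5-/-, against 3.73% to 4.88% in other kept cells of all 7 libraries. The choroid plexus epithelium is known for its many mitochondria, which feed its ion pumps, and a mitochondrial limit made for other cells can remove it. Of barcodes that met every other limit of the rule, the 15% limit removed 13 of 40 in WT replicate 1, 11 of 36 in WT replicate 2 and 69 of 183 in Lama4-/-. It removed 8 of 14 and 15 of 21 in the Tek-Cre:Lama5-/- libraries, and 0 of 1 in the WT library with a member. In all it took 116 of 295 such barcodes (39.3%), against 4.48% of all barcodes with at least 500 genes. Without the limit (an alternative added after seeing the data) the Lama4-/- share exceeded the mean WT share by 2.47 points, and the Tek-Cre:Lama5-/- mean exceeded its WT mean by 0.197 points.

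**Figure D2:**
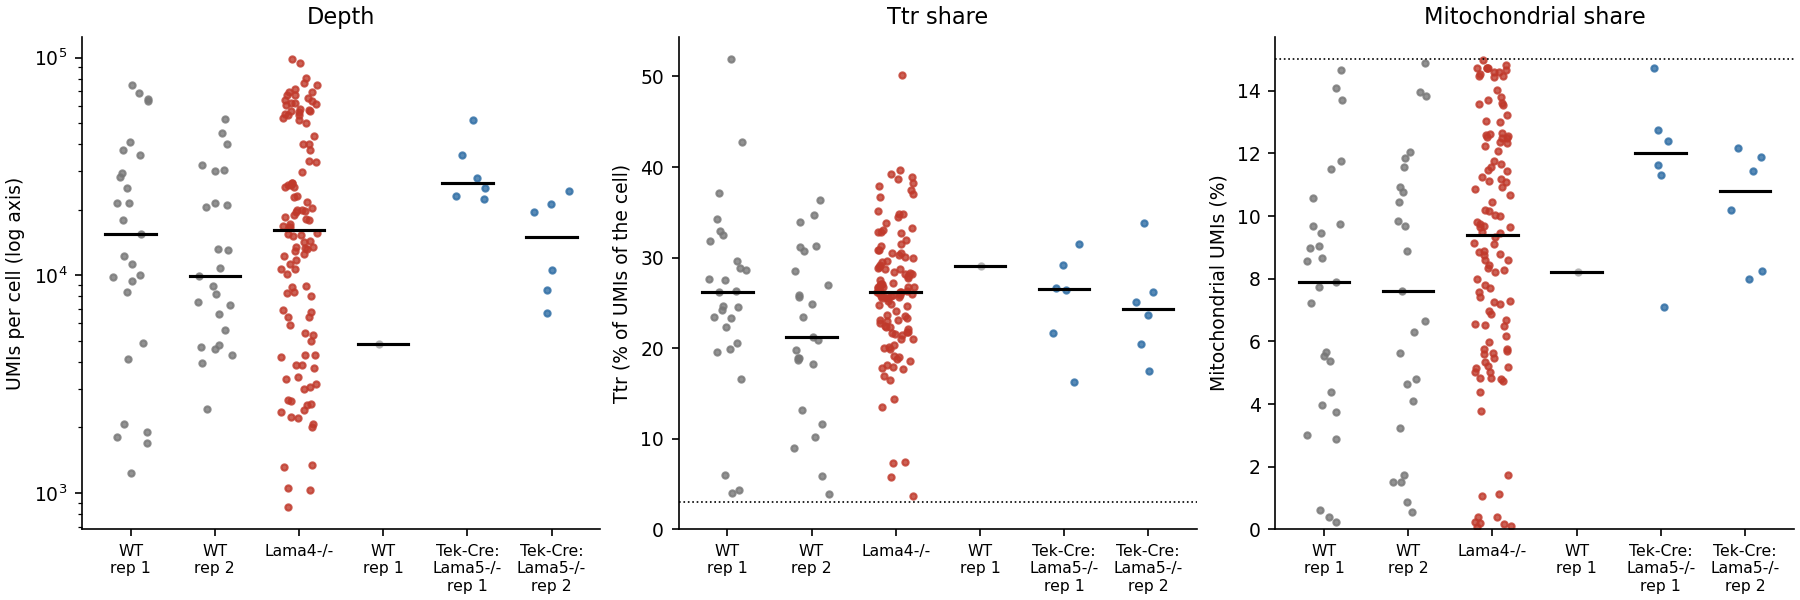
Each point is 1 member: UMIs per cell (log axis), Ttr as a percentage of the cell's UMIs (dotted line, the 3% limit) and mitochondrial UMIs (%, dotted line, the 15% limit), by library, with medians as black bars. Members of each library of the Lama4 experiment spread over more than a 20-fold range of depth. Those at 10% mitochondrial UMIs or more were 22.2%, 36.0% and 43.0% in WT replicate 1, WT replicate 2 and Lama4-/-.

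The targeted genes were read in every library. Lama4 (laminin alpha 4, chr10:38965515-39110188, plus strand, GRCm38) had 0 UMIs in the members of every library. For the members of the Lama4 experiment, 3 counts allow at most 4.81, 7.33 and 1.02 CPM in WT replicate 1, WT replicate 2 and Lama4-/-. In the endothelial gate, where laminin alpha 4 is a known vascular chain, Lama4 had 46.6 and 45.2 CPM in the WT libraries and 0.0556 CPM (1 UMI) in Lama4-/-, as the genotype labels say. Members of the WT libraries, like those of Lama4-/-, therefore gave no Lama4 signal at this depth.

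Lama5 (laminin alpha 5, chr2:180176373-180225859, minus strand) was present in members at low level: 14.4 CPM (9 UMIs in 5 of 27 members) and 26.9 CPM (11 UMIs in 10 of 25) in the WT libraries, and 24.6 CPM (72 UMIs in 41 of 114) in Lama4-/-. Lama4-/- lay between the WT libraries. Members of Tek-Cre:Lama5-/- had 10.8 CPM (2 UMIs, interval 1.31 to 39.0) and 11.01 CPM (1 UMI, 0.279 to 61.3), while the 1 WT member of that experiment had 0 UMIs at a depth that allows up to 618 CPM. No Lama5 comparison was possible in members at this depth. In the endothelial gate Lama5 was 42.9 and 42.1 CPM in the WT libraries of that experiment and 24.7 and 27.3 CPM in Tek-Cre:Lama5-/-, with both knockout values below both WT values.

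Secreted proteins and carriers led the members' transcripts. Ttr stood at 239753, 250881 and 259370 CPM in WT replicate 1, WT replicate 2 and Lama4-/-. Enpp2, which encodes autotaxin, the secreted enzyme that makes lysophosphatidic acid, stood at 17263, 14146 and 17743 CPM. 1500015O10Rik, the gene of the secreted peptide augurin, stood at 3681, 3540 and 3947 CPM. In Tek-Cre:Lama5-/- the 3 genes were at 260479 and 261131, 20706 and 21194, and 4102 and 4459 CPM. Cst3, the protease inhibitor cystatin C, was at 2791, 2384 and 2727 CPM, but it was higher in the microglia gate, at 63234 to 65249 CPM. Igfbp2, a carrier of insulin-like growth factors, was at 2446, 2398 and 2431 CPM and its lowest ratio to other kept cells was 42.1-fold. Sostdc1, a secreted antagonist of BMP and Wnt signals (chr12:36314139-36318452, plus strand), was at 843, 809 and 1018 CPM in the Lama4 experiment and at 448 and 639 CPM in Tek-Cre:Lama5-/-. F5, coagulation factor V, was at 463, 474 and 473 CPM. Of the 16 measured genes of this list, 11 had a higher and 5 a lower value in Lama4-/- than in the mean WT, with a median log2 ratio of 0.04, and none passed the rule of size described further on. The WT libraries differed from each other by a median of 0.09.

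Ion and water transport genes are the machinery of fluid secretion. Fxyd1, a regulator of the sodium pump, was at 898, 999.9 and 946 CPM and Atp1b1, the beta 1 subunit of that pump, at 930, 724 and 1028 CPM. Kcnj13, the apical potassium channel Kir7.1 (chr1:87386363-87394729, minus strand), was at 874, 1103 and 921 CPM. Lama4-/- lay between the WT libraries for Fxyd1 and Kcnj13 and above both for Atp1b1, with an interval that overlapped one of them. Clic6, a chloride intracellular channel protein, was at 632, 592 and 696 CPM, and Kcne2, a potassium channel subunit, at 531, 526 and 469 CPM. Slc4a5, a sodium bicarbonate cotransporter (chr6:83219828-83304945, plus strand), was at 152, 97.8 and 178 CPM, and Aqp1, the water channel of the apical membrane, at 122, 90.5 and 125 CPM; both were named after their values were seen. Each was under 1 CPM in the endothelial gate. Of 22 measured genes, all 22 had a Lama4-/- interval that overlapped at least 1 WT interval, 13 were higher and 9 lower, and the median log2 ratio was 0.20 (0.23 between the WT libraries).

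Among transporters of nutrients, vitamins, hormones and drugs, Folr1, the folate receptor that carries folate into the fluid (chr7:101858331-101870788, minus strand), was at 1385, 1303 and 1483 CPM. Rdh5, a retinol dehydrogenase, was at 467, 445 and 417 CPM. Slco1c1, a thyroxine transporter, was at 345, 374 and 365 CPM in members and at 1269 to 1316 CPM in the endothelial gate, so it was shared with the other barrier of the brain. All 22 measured genes of this list had a Lama4-/- interval overlapping a WT interval. The median log2 ratio was 0.16 (0.02 between the WT libraries).

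Hormone and transmitter receptors gave some of the most restricted transcripts. Prlr, the prolactin receptor (chr15:10177238-10349180, plus strand), stood at 1204, 1071 and 1084 CPM and Htr2c, the serotonin 2C receptor, at 417, 335 and 424 CPM. Kl, the FGF23 co-receptor klotho (chr5:150952607-150993817, plus strand), stood at 1021, 785 and 964 CPM. The lowest ratio of members to other kept cells over the 3 libraries was 102-fold for Prlr, 60.9-fold for Htr2c and 87.6-fold for Kl. For Kl the rule used the gene. Igf1r, the IGF1 receptor, went the other way, at 54.5, 61.1 and 80.2 CPM in members and 913 to 949 CPM in the endothelial gate. Htr2c was found in 17 of 27, 17 of 25 and 93 of 114 members, and in 40.9%, 41.7% and 58.6% of members thinned to 3000 UMIs. Prlr was found in 81.8%, 83.3% and 83.8% of the same thinned members. The 11 measured genes had a median log2 ratio of 0.23 in Lama4-/- (0.33 between the WT libraries), 9 higher and 2 lower, with no gene past the rule of size.

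The 15 genes with the highest ratio to other kept cells, by their lowest ratio in the 3 libraries, were Ttr, Prlr, Enpp2, Sostdc1, Kl, 2900040C04Rik, Folr1, Clic6, Kcnj13, Kcne2, Htr2c, 1500015O10Rik, Trpm3, F5 and Igfbp2. The ratios ran from 177-fold for Ttr to 42.1-fold for Igfbp2. They were taken against all other kept cells together, and for some of the genes the ependymal cells described below stood closer to members. Of these, Ttr, Enpp2, Kl, Folr1 and Kcnj13 chose the members, and the others were measured in cells those genes had chosen, so the list is a description. Trpm3, a calcium-permeable cation channel, was at 494, 384 and 549 CPM in the Lama4 experiment.

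Transcription factors of the developing choroid plexus and ventricular wall were read at moderate levels. Msx1, a homeobox gene, was at 340, 328 and 325 CPM, and Otx2, known to be required for choroid plexus formation, at 324, 230 and 250 CPM. Sox9 was at 125, 83.1 and 112 CPM in members and at 807 to 924 CPM in the ependymal gate, and Zic1 at 81.8, 46.5 and 63.5 CPM in members. Lama4-/- lay below both WT libraries for Msx1, by less than the counting intervals, and between them for the other 3 genes. The hindbrain genes Hoxa2, Hoxb3, Meis1 and En2 had 0 UMIs in members of the Lama4 experiment; these were named after their values were seen. No ventricle of origin was read from them. The 6 measured genes had a median log2 ratio of -0.08 in Lama4-/-, and of 0.52 between the WT libraries.

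Members held keratins and junction genes of simple epithelia. Krt18 and Krt8, both keratins, were at 260, 269 and 228 CPM and at 136, 154 and 102 CPM. Cldn2, the cation-permeable claudin of leaky epithelia, was at 156, 115 and 130 CPM in members and at 0 to 0.222 CPM in the endothelial gate. Ocln, a tight junction protein shared with brain endothelium, was at 62.5, 92.9 and 50.9 CPM in members against 318 to 345 CPM in the endothelial gate. All 12 measured genes had a Lama4-/- interval overlapping a WT interval, 3 were higher and 9 lower, and the median log2 ratio was -0.20.

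Motile cilia genes set members beside the ependymal cells that line the ventricles. The ependymal gate asked for at least 3 of 6 ependymal genes, their sum at 20 per 10000 or more, Ttr under the member limit and the endothelial and microglial genes under theirs, and it held 24 to 59 cells in each library. Calml4, a calmodulin-like protein placed in this list, was at 838, 1061 and 738 CPM in members and at 516, 437 and 539 CPM in the ependymal gate. Rsph1, of the radial spoke of the axoneme, was at 213, 284 and 188 CPM in members against 1040, 1023 and 1198 CPM in the ependymal gate. Cfap126 and Dynlrb2 were in members at 123, 176 and 124 CPM and at 127, 152 and 81.9 CPM. Foxj1, the regulator of motile cilia, was at 57.7, 80.7 and 43.0 CPM in members. Ccdc153 and Tmem212, at 1927 to 2414 CPM in the ependymal gate of the same libraries, had 0 UMIs in all of their members, where 3 counts allow at most 1.02 CPM in Lama4-/-. The gate was chosen by Rsph1, Cfap126, Dynlrb2, Foxj1, Ccdc153 and Tmem212, so their higher level there was set by the choice and these values are a description. In Lama4-/- the 8 measured cilia genes had a median log2 ratio of -0.38, with 7 lower, and replicate 1 of the WT was itself lower than replicate 2 by a median of -0.37.

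The 2 classes shared some genes usually read as choroid plexus markers. Folr1 was at 253, 228 and 256 CPM in the ependymal gate of the Lama4 experiment, and at 185, 191, 210 and 216 CPM in that of the Lama5 experiment. WT replicate 2 of the Lama5 experiment, with no member and 0.310 CPM of Folr1 in its endothelial gate, is the one at 191 CPM. In the ependymal gate of the Lama4 experiment, 1500015O10Rik was at 569, 659 and 827 CPM, Sostdc1 at 116, 174 and 136 CPM, and Igfbp2 at 111, 152 and 104 CPM. For these genes and Folr1 the gate was above other kept cells as a whole, so the ratios given above overstate the distance to it. Prlr, Htr2c, Kl and Kcnj13 stood at 0 to 6.82 CPM in the same gate.

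**Figure D3:**
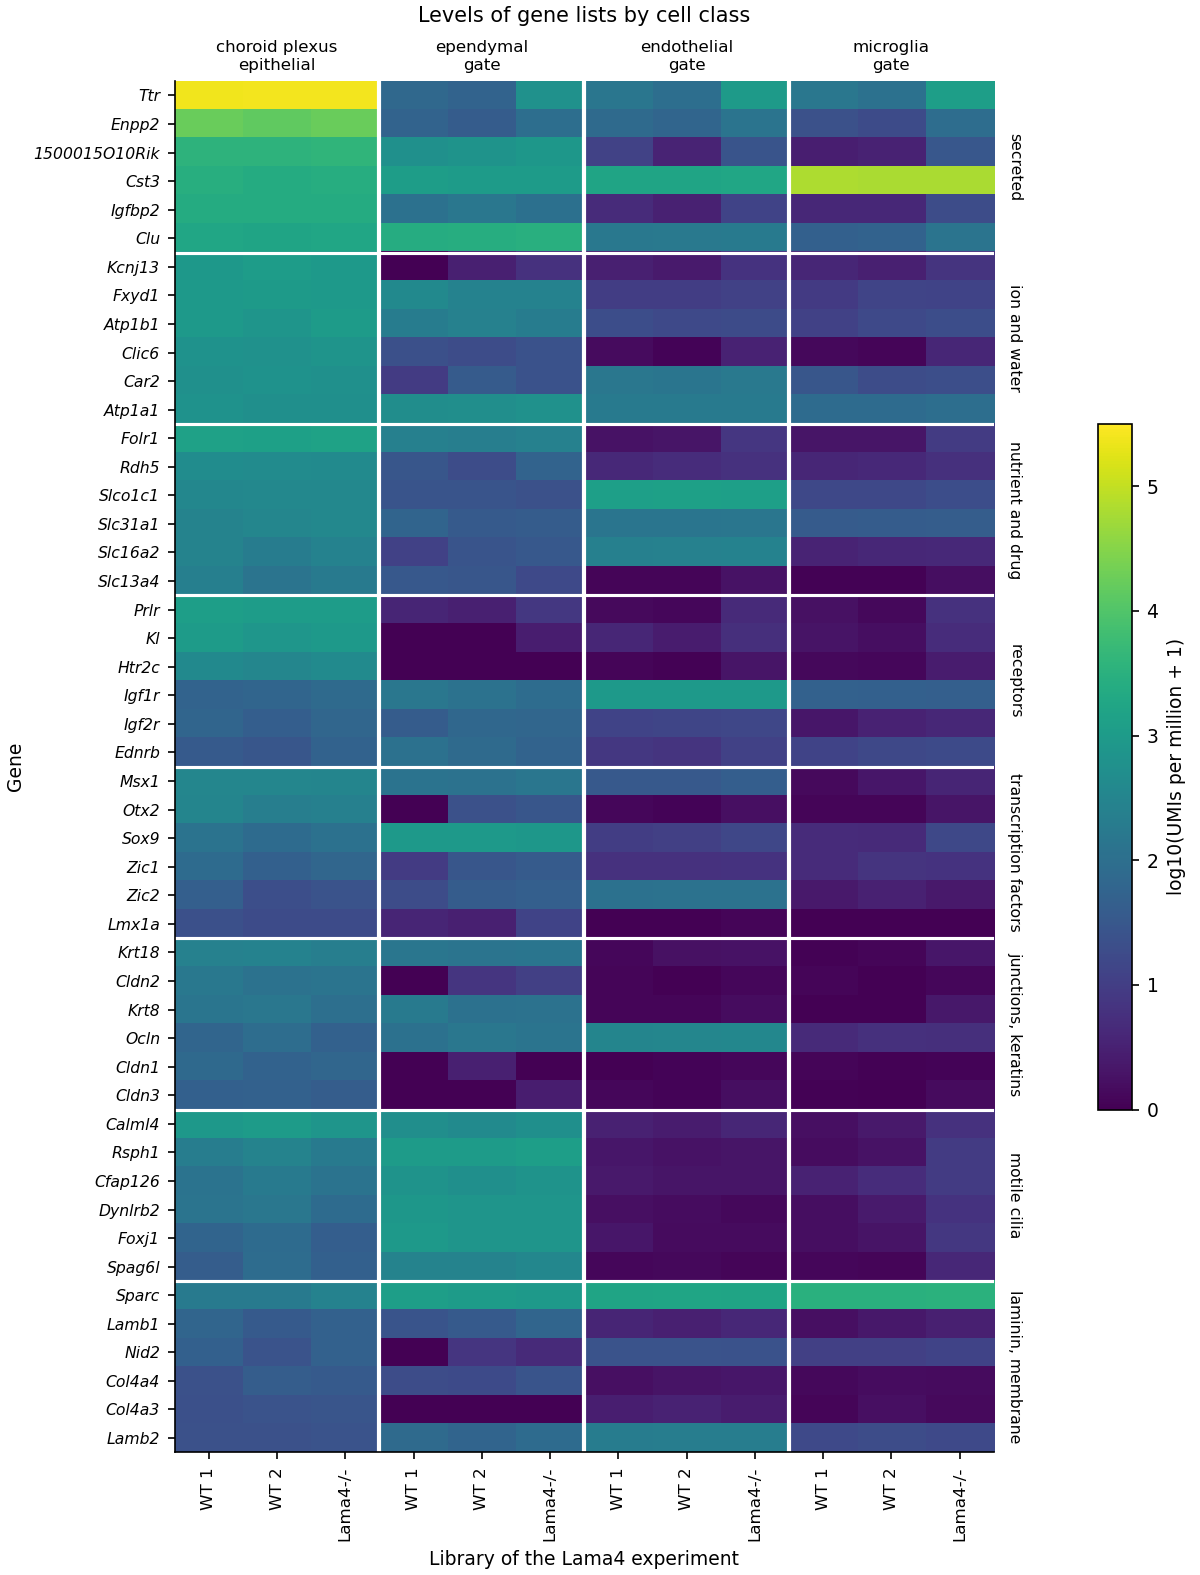
Levels, as log10(CPM + 1), of 6 of the most abundant member genes of each of 8 gene lists, in members and in the ependymal, endothelial and microglia gates of the 3 libraries of the Lama4 experiment. The 3 member columns look alike, receptors such as Prlr and Htr2c are bright in members alone, and the cilia genes shown, apart from Calml4, are brighter in the ependymal gate.

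Basement membrane genes were low in members, so most chains were read from few UMIs. Sparc, a matrix-binding glycoprotein, was at 172, 183 and 272 CPM, and Lama4-/- was above both WT libraries with an interval overlapping neither (1.53 times their mean, under the 2-fold that the rule of size asks for). Lamb1, the laminin beta 1 chain, was at 60.9, 34.2 and 50.9 CPM, and 3.00 CPM or less in the endothelial gate. Nid2, the laminin-binding nidogen 2, was at 46.5, 24.4 and 49.8 CPM, and Col4a4, a type IV collagen chain, at 22.4, 41.6 and 34.5 CPM against 0.675 to 1.11 CPM in the endothelial gate. Members thus read Lamb1, Col4a4 and Lama5, whereas Lama1 and Lamb3, like Lama4, had 0 UMIs in all 3 libraries. All 11 measured genes of the list were higher in Lama4-/- than in the mean WT, with a median log2 ratio of 0.21 against 0.01 over all genes measured. None passed the rule of size, 10 of the 11 had an interval overlapping a WT interval, and the median was -0.03 without the mitochondrial limit. Among laminin receptors, Sdc4 was at 117, 88.0 and 128 CPM, Itgb1 (integrin beta 1) at 101, 61.1 and 66.2 CPM, Bcam, a laminin alpha 5 receptor, at 51.3, 61.1 and 50.2 CPM, and Dag1 (dystroglycan) at 43.3, 48.9 and 47.8 CPM. For each of the 6 measured receptors the Lama4-/- interval overlapped at least 1 WT interval.

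For each of 8020 genes with at least 30 UMIs over the members of the Lama4 experiment, the rule of size asked for a 2-fold or larger difference between Lama4-/- and the mean WT, with 5 CPM added to each, and a Lama4-/- interval that overlapped neither WT interval. It is a rule for values and no test. It found 3 genes higher (0.0374% of those measured) and 13 lower (0.162%). The same limits on fold and interval between the WT libraries, a looser demand because it holds 1 pair and not 2, found 52 genes higher in replicate 1 (0.648%) and 26 lower (0.324%). Under that looser demand Lama4-/- had 34 genes higher and 72 lower than WT replicate 1, and 80 higher and 43 lower than WT replicate 2. Over the 1005 genes at 100 CPM or more in all 3 libraries, the SD of the log2 ratio was 0.27 for Lama4-/- over WT replicate 1, 0.30 over WT replicate 2, and 0.27 between the WT libraries. Member totals were 623768 and 409022 UMIs in the WT libraries and 2929675 in Lama4-/-, so counting error was larger between the WT libraries. The median log2 ratio of Lama4-/- over the mean WT was 0.01.

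**Figure D4:**
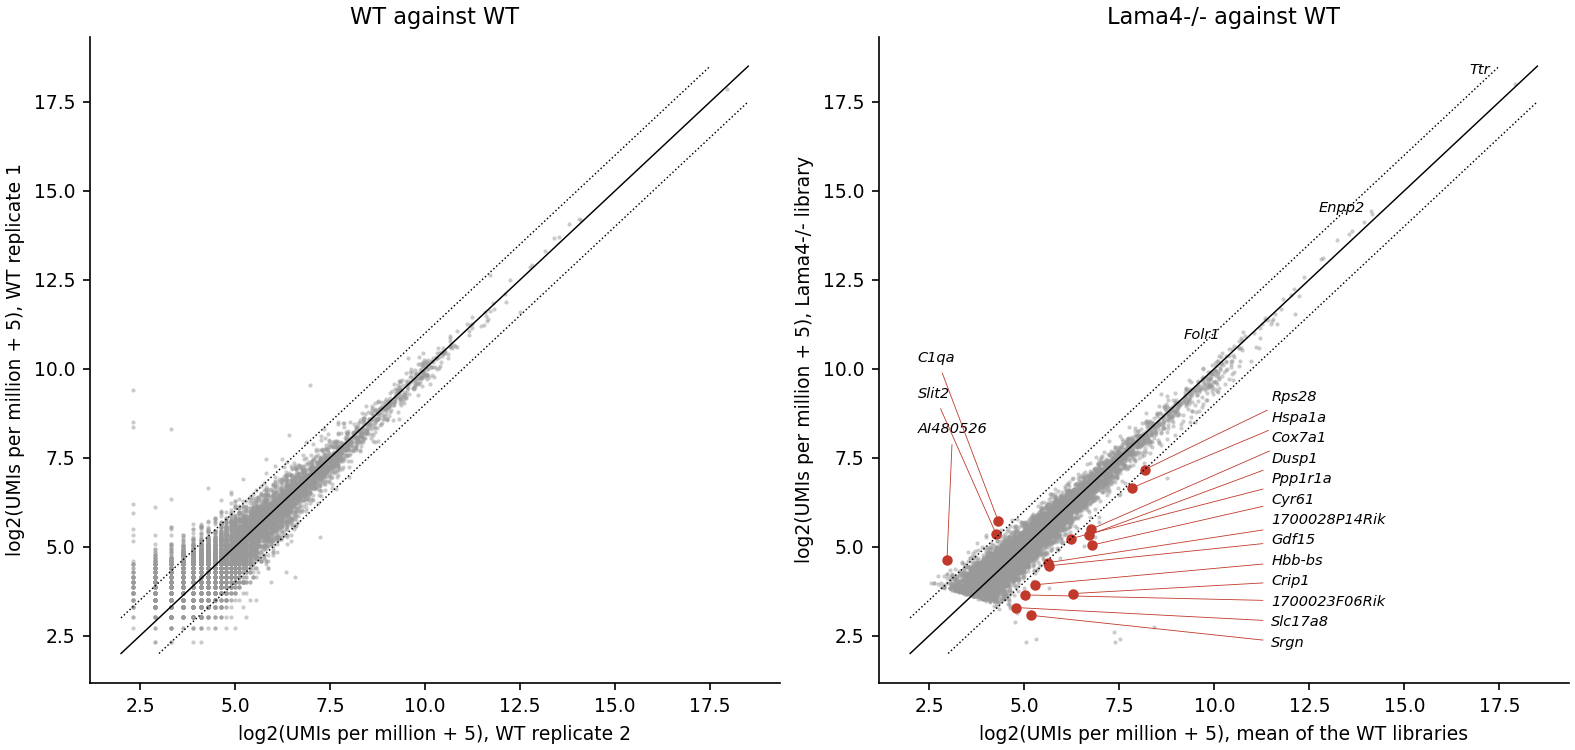
Summed levels in members, as log2(CPM + 5), for 8020 genes: WT replicate 1 against WT replicate 2 on the left and Lama4-/- against the mean WT on the right, with the line of equality, dotted lines at 2-fold and the 16 genes past the rule of size in red. Most genes lie within the dotted lines in both panels. The WT sums hold fewer UMIs than the Lama4-/- sum, so counting error widens the left panel and the spreads cannot be compared directly.

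The 3 genes higher in Lama4-/- members were low. C1qa, a complement gene of microglia, was at 12.8, 17.1 and 47.4 CPM, and 71 of its 139 UMIs in Lama4-/- lay in 1 member. C1qa was used by the rule, and in the microglia gate it stood at 8999 to 10491 CPM. Slit2, a secreted guidance cue (chr5:47983138-48307733, plus strand), was at 16.03, 12.2 and 36.2 CPM (2.56-fold), spread over 46 of 114 Lama4-/- members, 6 of 27 and 3 of 25 WT members. AI480526, a long noncoding RNA gene (chr5:123133723-123141666, minus strand), was at 3.21, 2.44 and 19.5 CPM, the WT values being 2 UMIs and 1 UMI. No gene of the function lists was among the 3. Slit2 was 0.66 on the log2 scale among members with at least 1000 genes and under 10% mitochondrial UMIs, and 0.47 without a mitochondrial limit, so its size depended on which members were kept.

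Among the 13 lower genes, several rested on 1 WT member. Crip1, a LIM domain protein, was at 115, 31.8 and 7.85 CPM, and 1 member held 59 of its 72 UMIs in WT replicate 1. Srgn, the proteoglycan serglycin of blood and endothelial cells, was at 44.9, 17.1 and 3.41 CPM, with 26 of 28 UMIs of WT replicate 1 in 1 member. Cyr61, a matricellular immediate-early gene, was at 149, 61.1 and 28.0 CPM, with 23 of 25 UMIs of WT replicate 2 in 1 member. Counted with equal weight for each member, the log2 ratio of Cyr61 was -0.24, against -1.74 in the sums.

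Gdf15, a stress-induced cytokine, was at 49.7, 41.6 and 17.1 CPM, with 22 of 31 UMIs of WT replicate 1 and 12 of 17 of WT replicate 2 in 1 member each. Its log2 ratio went from -1.20 to 0.0721 among members with at least 1000 genes and under 10% mitochondrial UMIs, so its direction turned. Slc17a8, a vesicular glutamate transporter, was at 25.7, 19.6 and 4.78 CPM, in 4, 5 and 8 members, with 11 of 16 UMIs of WT replicate 1 in 1 member.

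In the other lower genes, apart from Hspa1a and Dusp1 (described with their list), no member held as large a part of a WT library's UMIs. Cox7a1, a cytochrome c oxidase subunit, was at 123, 83.1 and 39.9 CPM (0.387 times the mean WT). It kept its direction in every alternative, from -1.52 to -0.97 on the log2 scale. In the ependymal gate Cox7a1 was also lowest in Lama4-/-, at 26.3, 36.4 and 11.9 CPM. Ppp1r1a, a protein phosphatase inhibitor, was at 64.1, 75.8 and 32.4 CPM, and its log2 ratio was -0.27 under the stricter filter on genes and mitochondrial UMIs. 1700028P14Rik was at 40.1, 48.9 and 18.4 CPM and 1700023F06Rik at 25.7, 29.3 and 7.51 CPM. Each of these was below both WT libraries. Hbb-bs, a haemoglobin gene, was at 38.5, 29.3 and 10.2 CPM in members, and its log2 ratio turned to 5.43 with the Ttr limit at 100 per 10000. Other classes did not share 1 order: Hbb-bs was at 2085, 2441 and 273 CPM in the endothelial gate, at 102, 323 and 495 CPM in the microglia gate and at 50.0, 10902 and 10.2 CPM in the ependymal gate. The remaining gene, Rps28, a ribosomal protein gene named after its values were seen, was at 359, 205 and 139 CPM in members. Its order was the same in the endothelial gate (417, 284 and 186 CPM) and in the microglia gate (744, 486 and 317 CPM), so that difference was not particular to members.

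The dissociation and stress genes had the list median farthest from 0 in the sums over members, a rank that did not hold in every alternative. Hspa1a, an inducible heat shock protein, was at 281, 169 and 95.9 CPM, and Dusp1, a phosphatase that ends MAP kinase signals, at 122, 75.8 and 35.2 CPM; these 2 of 14 measured genes passed the rule of size, both lower. In WT replicate 2, 1 member held 49 of 69 Hspa1a UMIs and 1 member held 25 of 31 Dusp1 UMIs; in WT replicate 1 the largest part in 1 member was 80 of 175 and 34 of 76. Hspa1a was also lowest in Lama4-/- in the endothelial gate (2746, 2938 and 1954 CPM), the microglia gate (6690, 6674 and 5736 CPM) and the ependymal gate (182, 170 and 128 CPM). Its lower value was thus not particular to members. Dusp1 was instead highest in Lama4-/- in the endothelial gate (789, 724 and 945 CPM) and the microglia gate (370, 349 and 463 CPM). Hspa1b was at 239, 112 and 82.3 CPM, Jun at 277, 80.7 and 84.3 CPM, and Hsp90aa1 at 1531, 1672 and 1519 CPM. WT replicate 1 stood apart from both other libraries for Jun, and all 3 libraries were alike for Hsp90aa1. The list's median log2 ratio was -0.97, with 13 genes lower and 1 higher, but it was 0.88 between the WT libraries. With equal weight for each member the median was -0.08, and among members with at least 1000 genes and under 10% mitochondrial UMIs it was -0.12, where motile cilia (-0.53) and receptors (0.53) were farther from 0. Without WT replicate 1 it was -0.42, against -0.55 for motile cilia. Summed over the list, members had 2947, 2369 and 2009 CPM and the endothelial gate had 12887, 13019 and 11814 CPM.

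Metal and antioxidant genes held 1 further difference. Mt3, a metallothionein, was at 1440, 1442 and 816 CPM (0.566 times the mean WT), below both WT libraries and short of 2-fold. It was also lower in the ependymal gate, at 4973, 3987 and 2895 CPM. Fth1 and Ftl1, the ferritin chains, were at 3726, 4506 and 4334 CPM and at 909, 843 and 858 CPM, and Prdx5, a peroxiredoxin, at 1039, 1323 and 1139 CPM. The 12 measured genes had a median log2 ratio of -0.05. In the interferon and antigen presentation list, Ifi27 was at 752, 880 and 856 CPM and Bst2 at 164, 161 and 188 CPM, and the median of the 10 measured genes was -0.09. Cd74, the class II invariant chain, was at 669, 0 and 1.71 CPM, and 415 of its 417 UMIs in WT replicate 1 came from 1 member, which also held 194 of 195 UMIs of H2-Aa and 203 of 203 of H2-Ab1.

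**Figure D5:**
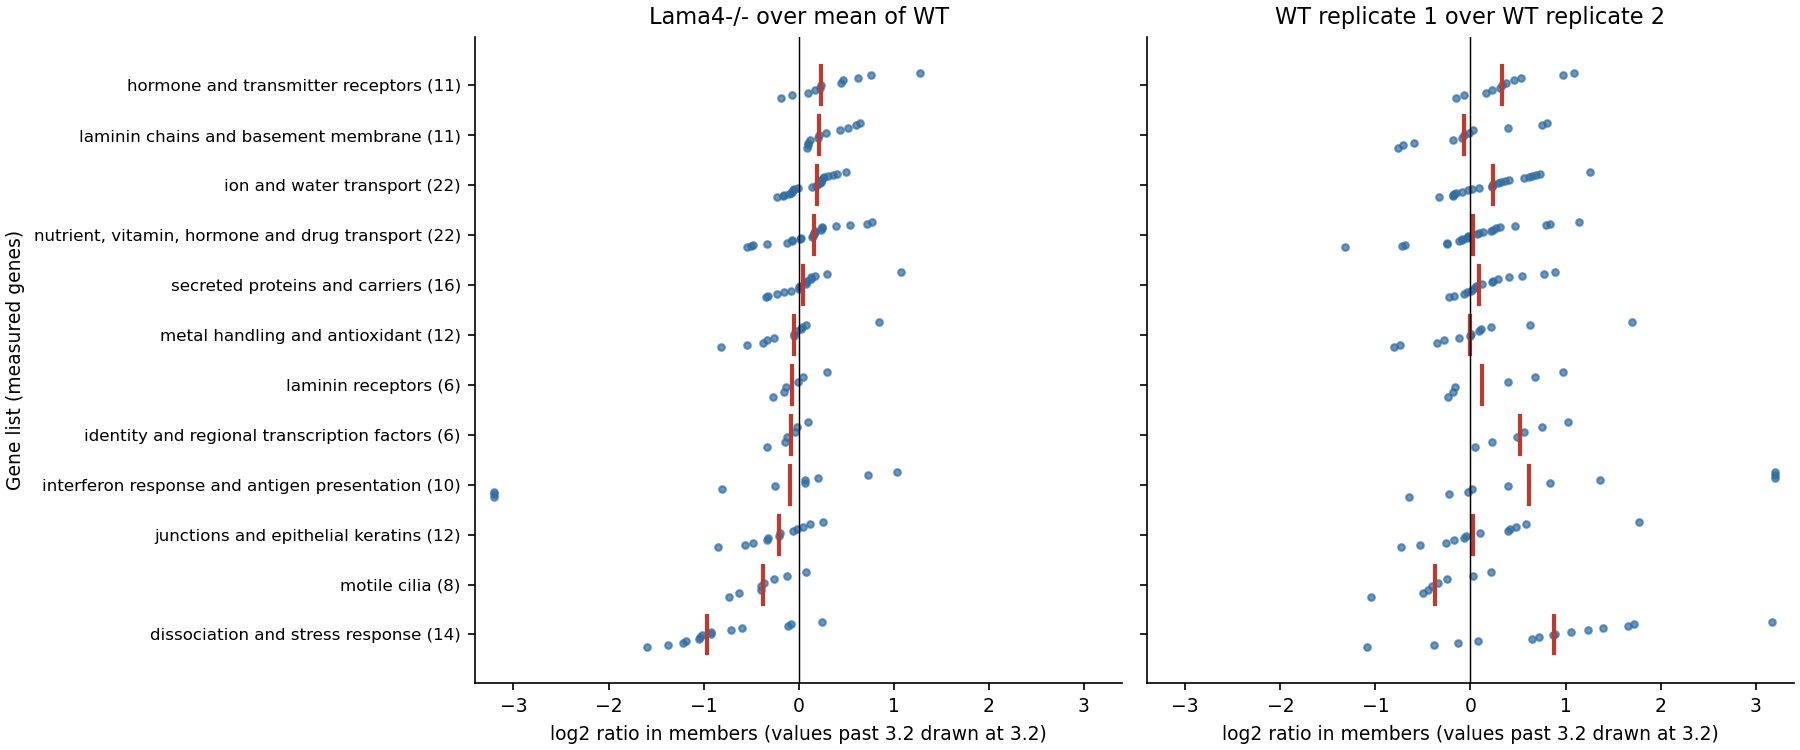
Log2 ratios in members (5 CPM added) for the measured genes of 12 function lists, each point 1 gene and each red bar the list median, for Lama4-/- over the mean WT on the left and WT replicate 1 over replicate 2 on the right. The dissociation and stress list has the median farthest from 0 in both panels (-0.97 and 0.88), with opposite signs.

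Over all 12 function lists, 150 genes were measured. The Lama4-/- interval overlapped at least 1 WT interval for 142 of the 150. The other 8 were Hspa1a, Dusp1, Mt3 and Dynlrb2, which were lower, and Ttr, 1500015O10Rik, Sostdc1 and Sparc, which were higher. Their ratios to the mean WT ran from 0.356 for Dusp1 to 1.53 for Sparc, and Ttr, whose counting interval is very narrow, was at 1.06. Sostdc1 was at 1.23 times and 1500015O10Rik at 1.09 times the mean WT. The share of all 8020 measured genes with such an overlap was not counted, so no list was set against it. Neither this count nor the overlap counts given above for single lists can therefore be read as a result about the lists.

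Markers of other cell types were low in members. The summed endothelial list was 154, 306 and 133 CPM in the Lama4 experiment, against 20053 to 21730 CPM in the endothelial gate, and its most abundant gene Slco1a4, an organic anion transporter, was at 72.1, 70.9 and 63.1 CPM. The microglia list summed to 106, 108 and 205 CPM against 37624 to 42460 CPM in the microglia gate. The endothelial list holds Cldn5, Flt1 and Pecam1, and the microglia list holds C1qa and C1qb. These genes chose both the members and the gates, so both gaps were partly set by the choice and are a description. The pericyte and smooth muscle list summed to 281, 88.0 and 85.3 CPM; its leading gene Vtn was at 172, 70.9 and 46.8 CPM, and 85 of the 107 Vtn UMIs of WT replicate 1 came from 1 member. Astrocyte genes summed to 57.7, 53.8 and 92.8 CPM, with Aldoc leading at 35.3, 36.7 and 42.0 CPM. Oligodendrocyte genes summed to 75.3, 61.1 and 44.7 CPM, with Mbp leading at 36.9, 22.0 and 23.9 CPM. Fibroblast genes summed to 33.7, 51.3 and 48.8 CPM, Col1a2 being at 14.4, 17.1 and 33.5 CPM. Lists of perivascular macrophages (Mrc1), neutrophils (S100a9), neurons (Stmn2) and lymphocytes (Cd79a) summed to between 0 and 14.7 CPM. Red cell genes summed to 67.3, 61.1 and 16.7 CPM, with Hbb-bs leading. The microglia list, which holds C1qa, was highest in Lama4-/- and the red cell and pericyte lists were highest in WT replicate 1; their part in other differences was not tested.

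The 12 members of Tek-Cre:Lama5-/- had no usable control, since their WT libraries held 1 and 0 members. They were set beside the Lama4 experiment, a separate experiment with other mice. Prlr was at 1020 and 1156 CPM, Clic6 at 837 and 672 CPM, and Otx2 at 324 and 220 CPM. Folr1, which the rule used, was at 1468 and 1442 CPM. Kl was at 1700 and 1651 CPM, above its 785 to 1021 CPM in the Lama4 experiment. Enpp2, at 20706 and 21194 CPM, was also above all 3 of those libraries. Over the 8020 genes, 6 (0.0748%) were above all 3 libraries in both Tek-Cre:Lama5-/- libraries with no overlap of intervals, and 10 (0.125%) were below them. Kl and Enpp2, both used by the rule that chose these cells, were the only function list genes among the 16. The other genes above, named after their values were seen, were the mitochondrial genes mt-Nd4l and mt-Nd5, Lars2 and Gm42418, and Gm42418 was at 13705 and 24981 CPM against 2989 to 5763 CPM. Actb, beta actin, was below, at 561 and 528 CPM against 887 to 1124 CPM. Genotype, experiment, depth and the higher mitochondrial share of these 12 cells cannot be told apart here.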

How the data were processed

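The deposited values were raw UMI counts per gene and barcode, per the file headers (Matrix Market files with a Cell Ranger metadata line, software version 3.1.0). The submitters' processing notes name Cell Ranger, Seurat 3.1 and the build mm10, and per the labels' protocols the libraries used the Chromium 3-prime kit v3. The deposited counts carry no normalization and no cell annotation. Gene IDs were matched to GENCODE M21 on GRCm38 (31011 of 31053 found), which gave the coordinates, 1-based. Strand handling in the counting is not given in the sources used here.

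Members were found by the rule in the report, and endothelial, microglia and ependymal gates were disjoint from them. The lowest total of a deposited barcode was 500 UMIs. No doublet caller was run; the limits on endothelial and microglial genes removed 5 and 2 barcodes. Counts were summed over members of a library and divided by their total, which was 623768, 409022 and 2929675 UMIs in WT replicate 1, WT replicate 2 and Lama4-/-, 4852 in the WT library with 1 member of the Lama5 experiment, and 185259 and 90828 in Tek-Cre:Lama5-/-. Shares in the Lama5 experiment were compared by an exact permutation test over libraries. The rule of size and its 2 thresholds are in the report. It was also run on simulated Poisson counts, which cannot show the effect of UMIs held by 1 member. Python 3.11.15, numpy 2.4.6, scipy 1.17.1, pandas 2.3.3 and matplotlib 3.10.9 were used.

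The members, gene lists and rules were chosen with earlier results of these data known. Genes named are those used by the rule, the targeted genes, up to 12 in each direction past the rule of size, up to 4 of each function list by level and any past the rule of size, the most abundant marker of each other cell type, and the 15 with the highest ratio to other cells; others are said to be named after their values were seen. Alternatives changed 1 choice at a time, except that the stricter cell filter (at least 1000 genes and under 10% mitochondrial UMIs) changed both limits together. A few genes that this rule would name are not reported here.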

Additional observations from a re-analysis of the deposited data

Results flagged for a closer look

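The share of ependymal-gate cells moved in opposite directions in the 2 experiments. It was 0.429% and 0.525% in the WT libraries of the Lama4 experiment and 0.915% in Lama4-/-, a difference of 0.438 percentage points from the mean WT. It was 0.619% and 0.692% in both Lama5-experiment WT libraries and 0.432% and 0.514% in Tek-Cre:Lama5-/-, a difference of -0.1826 points. The Lama4-/- library was above both of its WT libraries and both Tek-Cre:Lama5-/- libraries were below both of theirs, but counting intervals overlapped: Lama4-/- spanned 0.678% to 1.21% and its WT replicate 2 0.349% to 0.758%, while Tek-Cre:Lama5-/- replicate 2 spanned 0.374% to 0.690% and its WT replicate 1 0.464% to 0.809%. The difference between the experiments was not tested.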

How the results depend on the processing

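The Lama4-/- share of members stayed above the mean WT share in all alternatives. The difference was 0.957 points with at least 1000 genes and under 10% mitochondrial UMIs (16, 16 and 58 members), 2.47 points with no mitochondrial limit, and 1.65 to 1.66 without 1 WT library. The count of genes higher was 12 with Ttr at 100 per 10000, 8 under the stricter cell filter (0 of them among the 3), 6 with totals without Ttr, 5 with median-of-ratios scaling, 0 with a pseudocount of 20, 1 with no mitochondrial limit, and 32 to 80 without 1 WT library. The count lower was 6 with a pseudocount of 20, 7 with at least 100 UMIs, 11 under the stricter filter (1 of them among the 13), 21 with no mitochondrial limit (8 shared), and 37 to 67 without 1 WT library. The log2 ratio reversed for Hbb-bs (5.43 with Ttr at 100), Gdf15 (0.0721 under the stricter filter) and C1qa (-0.29 with no mitochondrial limit); the causes were not tested. Leaving out the mitochondrial limit, the members under 2% mitochondrial UMIs, or the WT member rich in Cd74 were alternatives added after seeing the data. Libraries were also paired by replicate number, although no label says that they are pairs. The paired difference for Tek-Cre:Lama5-/- was 0.0652 points, exact permutation p = 0.5, the smallest that 2 pairs allow.

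The number of members, 1 and 0 in WT of the Lama5 experiment, and 1 distinct Lama4-/- library limit every comparison, and genes under about 30 UMIs were not compared.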

Other observations

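A small set of members had almost no mitochondrial UMIs, a pattern seen only after the cells were plotted. Under 2% mitochondrial UMIs were 3 of 27 members in WT replicate 1, 5 of 25 in WT replicate 2 and 10 of 114 in Lama4-/-, and none of the 12 Tek-Cre:Lama5-/- members. All 10 members of the Lama4 experiment with Ttr under 10% of their UMIs were among these 18. Their Ttr share had a median of 4.32%, 8.99% and 13.9% in the 3 libraries, against 27.0%, 25.3% and 26.5% in the other members. Folr1 was at 277, 315 and 661 CPM in them, against 1432, 1377 and 1494 CPM in the rest. The ribosomal protein gene Rpl13 went the other way, at 2376, 2272 and 1850 CPM against 1231, 1157 and 1180 CPM, and so did beta actin, Actb, at 2693, 2447 and 2008 CPM against 1058, 770 and 979 CPM. Malat1, a nuclear noncoding RNA, was low in these members of the WT libraries, at 238 and 69.9 CPM against 6563 and 3593 CPM, and high in those of Lama4-/-, at 22379 CPM against 3949 CPM. The cells of the set were thus not alike between libraries. Leaving all 18 out gave 2 genes higher and 12 lower past the rule of size.

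Plvap, which encodes the diaphragm protein of fenestrated capillaries such as those of the choroid plexus, was looked at in the endothelial gate after its values were seen. It was at 8.92 and 3.44 CPM in the WT libraries of the Lama4 experiment and 24.8 CPM in Lama4-/-, and at 0.338 and 0.349 CPM in both Lama5-experiment WT libraries and 5.20 and 5.80 CPM in Tek-Cre:Lama5-/-. Within each experiment the knockout libraries had the highest values. A Plvap UMI was found in 16 of 2473, 10 of 2328 and 26 of 2526 endothelial-gate cells of the Lama4 experiment, and in 9 of 5525, 8 of 5540, 16 of 5198 and 14 of 5303 of the Lama5 experiment. Members themselves had 0 Plvap UMIs in 4 of the 6 libraries with members, 11 UMIs in Lama4-/- and 1 in a Tek-Cre:Lama5-/- library.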
